A study of Homo sapiens with 12 samples.

Results

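The comparison described here asks how far each poly(A) RNA of CP25-treated HEK293T cells was depleted after 2 h of transcription block, set against the same treated cells at 0 h. HEK293T is a human embryonic kidney line that stably carries the SV40 large T antigen. The genes described are all those that averaged 1 FPKM or more (fragments per kilobase of transcript, scaled to the mapped fragments of the library) over the 6 CP25 libraries, which gave 12157 of 23615 gene rows. SCARNA1 at a mean of 1.00 FPKM was the last gene inside that limit, and the first outside it was ARSJ at 0.9996 FPKM. The series holds 12 libraries in 4 groups of 3. In the CP25 groups, cells had been given 2 μM CP25, a macrocyclic compound that the labels call a Dcp2 inhibitor, for 18 h, and actinomycin D at 5 μg/mL then stopped transcription for 0 h or 2 h. The other 2 groups had an equal volume of peptide storage buffer in place of CP25 and were otherwise handled alike. The labels do not say whether the 3 replicates were separate cultures, so the spread between libraries may be technical.

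Actinomycin D inserts into DNA and blocks the elongation of RNA polymerases. Once synthesis stops, the RNA left at a later time depends on how fast each transcript is degraded. Most mRNAs first lose their poly(A) tail to deadenylases; the cap is then removed by Dcp2 with its activators Dcp1, the Edc proteins, DDX6 and the Lsm1-7 ring, and Xrn1 degrades the body from the 5′ end, while the exosome degrades from the 3′ end. Transcripts for signalling feedback factors and many transcription factors are known to be short-lived, and those for ribosomal proteins and metabolic enzymes are known to be long-lived.

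FPKM is a share of the sequenced RNA, so a loss common to all genes does not show in it, and in bulk RNA fewer cells and less RNA per cell cannot be told apart. The 0 h and 2 h values were deposited in separate tables that are taken as scaled separately. Each library was therefore centred on its median gene on the log2(FPKM + 1) scale, and every change below is a difference in log2 between the mean of the 3 libraries at 2 h and at 0 h after centring, given with its standard error over libraries (SE, n = 3 against 3). A value of 0 means that a gene moved with the median gene. The added 1 FPKM understates the change of genes with low values. A gene is called low or high when this change was at least 2-fold and the 3 libraries of each time did not overlap. This is a description and not a test, since no test was made between the tables. Without centring, the median gene stood at -0.16.

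The distribution of changes leaned to the low side. Of 12157 genes, 551 were called low (4.53%) and 12 were called high (0.0987%). Lower values at 2 h without overlap were found in 30.3% of genes and higher values without overlap in 29.9%, but the sizes differed. The lowest 1% of genes lay at or below -1.64 and the highest 1% at or above 0.72. The 5th and 95th percentiles were -0.99 and 0.54. On the log2(FPKM + 1) scale, values at least 4-fold lower without overlap were seen in 43 genes, and at least 8-fold lower in 9. The median SE was 0.0965, and it was 0.101 among the low genes. Of the low genes, 447 had a mean of at least 5 FPKM at 0 h and 105 had a mean under 1 FPKM at 2 h. The count of low genes moved with the scale: it was 832 without centring and 348 with quantile normalization, of which 551 and 339 were among the 551.

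Estimated depth was 20.3 to 22.4 × 10⁶ fragments in the CP25 libraries at 0 h and 24.4 to 28.7 × 10⁶ at 2 h. Across genes, libraries of 1 time correlated at 0.975 to 0.984 and libraries of different times at 0.945 to 0.960. All 8 markers of the HEK293T line were among the 12157 genes, led by the vimentin gene VIM, and their summed level was 323 to 385 FPKM at 0 h and 354 to 452 FPKM at 2 h. None of 7 blood markers and none of 5 markers of keratinised or glandular epithelium reached a mean of 1 FPKM. Of 7 fibroblast and endothelial markers, only COL1A1 did, at a change of 0.04 ± 0.11. Small RNA genes made up 151 of the 12157, and 123 of these were listed at 0 in at least 1 of the 6 libraries. SNORD63 was listed at 0 in 5 libraries and at 75785 FPKM in CP25 2 h replicate 3, which is 12.6% of the summed FPKM of that library. Of the other 12006 genes, 538 were called low and 8 high.

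Of the 9 genes at least 8-fold lower on the log2(FPKM + 1) scale, 5 were small RNA genes. Of these 5, 4 were listed at 0 in every 2 h library. The other 4 of the 9 were ZNF703, ZNF503, JUN and MYC. The added 1 FPKM understates the fall of genes that ended under 1 FPKM, so this order is not that of FPKM ratios. NFKBIA, with means of 12.1 FPKM at 0 h and 0.562 FPKM at 2 h, did not reach 8-fold on this scale. The genes named next are the lowest with a mean of at least 5 FPKM at 0 h, small RNA, antisense and clone names left out. ZNF703, a zinc-finger repressor, stood at 52.2, 50.9 and 58.8 FPKM at 0 h and at 3.27, 4.01 and 4.38 FPKM at 2 h, a change of -3.32 ± 0.12. Its relative ZNF503 changed by -3.10 ± 0.11, from 48.9, 44.5 and 52.5 FPKM to 3.75, 4.69 and 3.99 FPKM. JUN, a subunit of the AP-1 transcription factor, had 47.4, 61.9 and 44.9 FPKM at 0 h and 5.59, 2.98 and 5.47 FPKM at 2 h. In each of these genes the 2 h libraries lay far below all 0 h libraries. The change of JUN was -3.06 ± 0.27. MYC, a driver of growth and proliferation, had 55.3, 79.1 and 61.5 FPKM at 0 h and 7.29, 3.56 and 8.79 FPKM at 2 h. Its change was -3.02 ± 0.36, and replicate 2 held both the highest 0 h value and the lowest 2 h value, as it did for JUN.

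NFKBIA encodes IκBα, the inhibitor that holds NF-κB in the cytoplasm. It had 12.4, 11.1 and 12.8 FPKM at 0 h and 0.513, 0.485 and 0.689 FPKM at 2 h, a change of -2.90 ± 0.08. BAMBI, a pseudoreceptor that dampens TGF-β signalling, stood at 11.9, 9.98 and 10.2 FPKM and then at 0.503, 0.505 and 0.520 FPKM. Both genes ended below 1 FPKM in every 2 h library, with little spread between them. The change of BAMBI was -2.78 ± 0.07. SERTAD3, a transcription cofactor, had a change of -2.68 ± 0.18 and TRIB1, a pseudokinase adaptor, one of -2.52 ± 0.03. FBXO5 encodes Emi1, an inhibitor of the anaphase-promoting complex, and had 51.8, 52.9 and 53.7 FPKM at 0 h and 7.38, 6.81 and 7.79 FPKM at 2 h. Its change was -2.52 ± 0.05. The cofactor CITED2 stood at -2.46 ± 0.36 and the immediate-early gene IER5 at -2.46 ± 0.18.

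**Figure D1:**
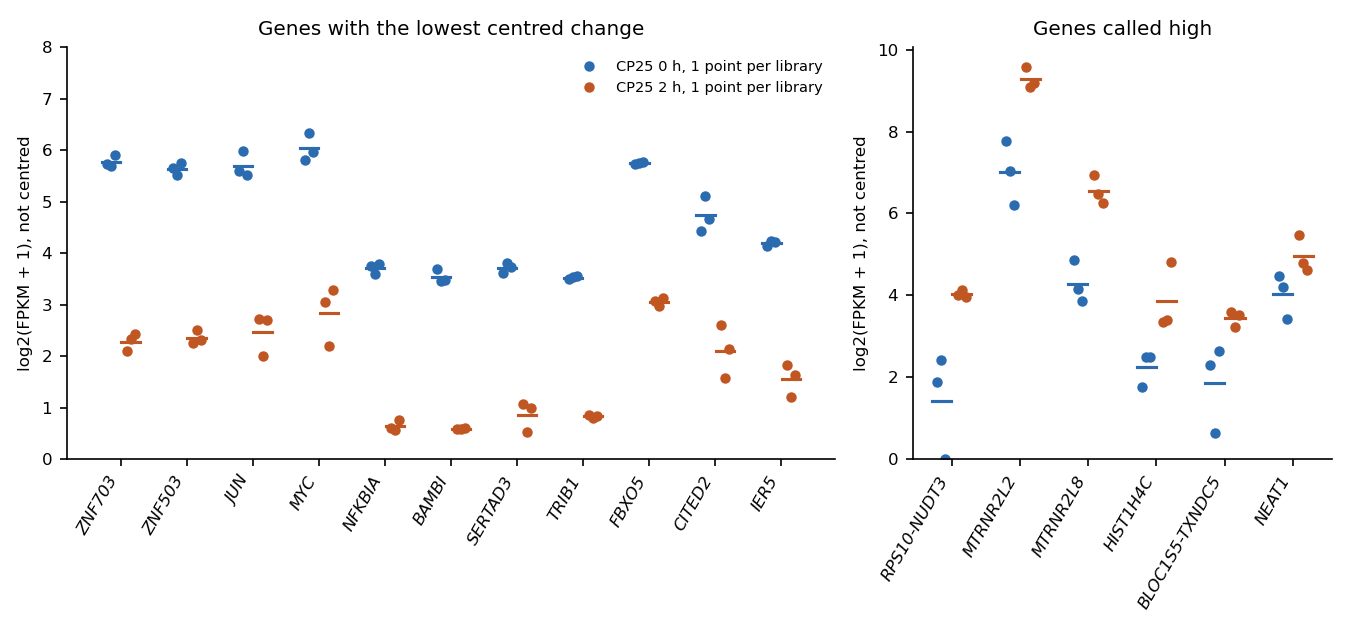
FPKM in each CP25 library, on a log2(FPKM + 1) axis without centring, for 11 of the 12 low genes with the lowest change and the 6 high genes, among those with a mean of at least 5 FPKM at 0 h (low) or 2 h (high); small RNA, antisense and clone names are left out. Blue points are 0 h libraries, orange points 2 h libraries and bars the means of 3; in all of these genes the colours do not overlap, and the 0 h points of RPS10-NUDT3 and BLOC1S5-TXNDC5 are spread widely.

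Among 15 measured immediate-early factors, which are induced within minutes of a stimulus, 6 were called low (40%, against 4.53% of all genes). Lower values without overlap were found in 14 (93.3%, against 30.3% of all genes). The median of the list was -0.86, against 0.01 over all genes. JUNB, another AP-1 subunit, stood at -1.72 ± 0.19 and IER2 at -1.71 ± 0.19. IER3 lay at the list's median with -0.86 ± 0.25. ATF3, a stress-induced factor, overlapped between the times, with 5.59, 10.6 and 6.36 FPKM at 0 h and 6.19, 3.44 and 4.76 FPKM at 2 h. Its change was -0.36 ± 0.32. FOS averaged less than 1 FPKM and was not a member. All 10 Krüppel-like zinc-finger factors were lower without overlap, and 5 were called low (50%, against the same 4.53%). The median of these factors was -0.90, with KLF10 at -1.79 ± 0.20 and KLF13 at -0.25 ± 0.06.

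The helix-loop-helix repressors of Notch and BMP signalling had a median of -1.07, and 6 of 11 were called low (54.5%, against 4.53% of all genes). HES1, a Notch target, had 15.7, 19.3 and 15.7 FPKM at 0 h and 2.55, 1.38 and 1.88 FPKM at 2 h, a change of -2.45 ± 0.19. All 4 ID genes, whose products block helix-loop-helix activators, were called low. ID1 was the lowest of them at -2.22 ± 0.33 and ID4 the highest at -1.07 ± 0.05. HES7 was an exception with wide spread at 0.30 ± 0.40. Of 7 SOX factors, 4 were called low (57.1%, against the same 4.53%), from SOX4 at -1.71 ± 0.17 to SOX7 at -1.17 ± 0.07. SOX2 was among them at -1.54 ± 0.12. SOX8 stood at -0.10 ± 0.18 with overlapping libraries.

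Feedback inhibitors of signalling pathways were called low in part. In the TGF-β and BMP list, 4 of 13 were called low (30.8%, against 4.53% of all genes), with a median of -0.74. Lower values without overlap were found in 10 (76.9%, against 30.3% of all genes). BAMBI, the inhibitory SMAD7 at -1.71 ± 0.08, TGIF1 at -1.68 ± 0.08 and SMAD6 at -1.14 ± 0.18 were the 4. In the MAP kinase list, 4 of 9 were called low (44.4%, against 4.53% of all genes) and the median was -0.74. DUSP1, a phosphatase that switches off MAP kinases, had 5.76, 7.17 and 6.32 FPKM at 0 h and 0.264, 0.481 and 0.394 FPKM at 2 h. Its change was -2.25 ± 0.10. The Sprouty genes, whose products inhibit receptor tyrosine kinase signalling, were close to it: SPRY1 stood at -2.24 ± 0.28 and SPRY2 at -2.11 ± 0.12. DUSP9 differed from these and overlapped between the times at 0.05 ± 0.24. Of 14 NF-κB subunits and inhibitors, NFKBIA alone was called low (7.14%, against 4.53% of all genes). Without overlap, 10 of the 14 were lower (71.4%, against 30.3% of all genes) and 1 was higher, and the median was -0.41. The subunit RELA stood at -0.43 ± 0.10 and the kinase gene CHUK at 0.34 ± 0.08.

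Zinc-finger genes were the largest group. Of 371 measured genes named ZNF, 77 were called low (20.8%, against 4.53% of all genes), and the median was -0.57. Lower values without overlap were found in 281 (75.7%, against 30.3% of all genes). ZNF genes were 13.97% of all low genes and 3.05% of all 12157. ZNF204P at 0.65 ± 0.11 was the highest of them. Of 36 ZBTB genes, 11 were called low (30.6%) and 33 were lower without overlap (91.7%), with a median of -0.71 and ZBTB6 lowest at -1.49 ± 0.07. The 35 HOX genes, which set positional identity, had a median of -0.48, and 6 were called low (17.1%, against 4.53% of all genes). All 6 lie in the HOXA cluster, where they were 6 of 11 measured genes; 0 of 24 genes of the HOXB, HOXC and HOXD clusters were called low. That split by cluster was looked at after the values were seen. HOXA6 had 13.8, 11.6 and 10.0 FPKM at 0 h and 1.28, 1.07 and 1.17 FPKM at 2 h, a change of -2.38 ± 0.12, and HOXA5 stood at -2.08 ± 0.06. The median was -1.06 for HOXA, and HOXB7 at 0.04 ± 0.11 was the highest HOX gene.

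**Figure D2:**
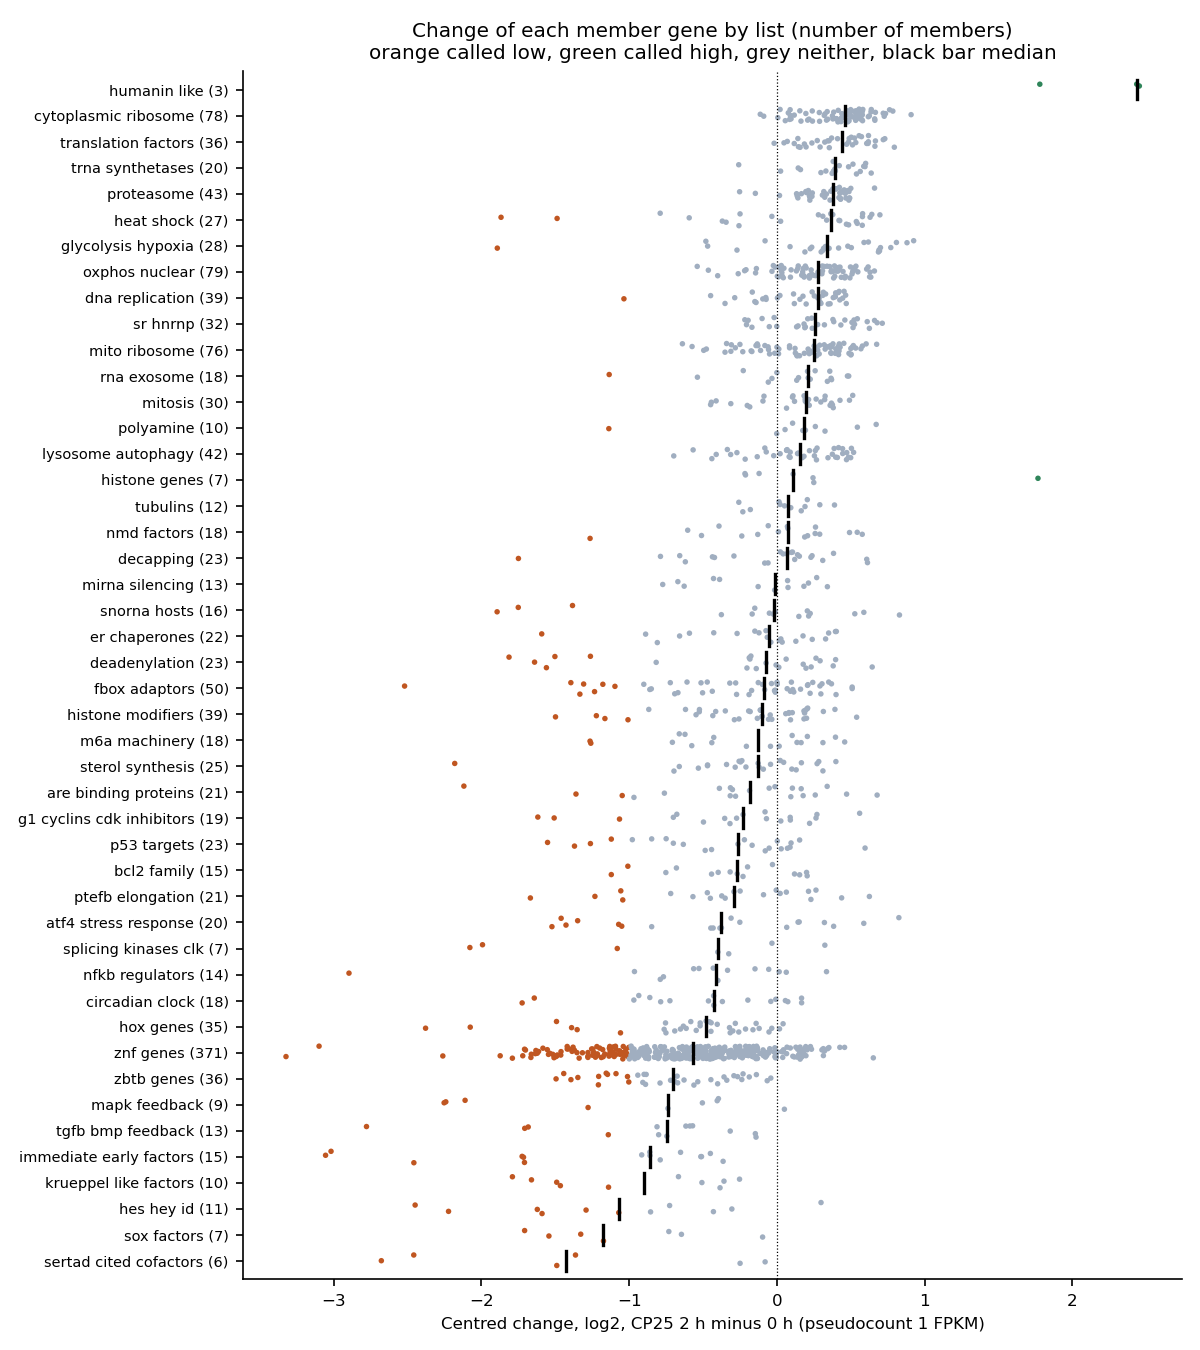
Centred change (log2, 2 h minus 0 h) of each measured gene in 46 lists, sorted by the list median (black bar), with the number of measured genes in brackets. Orange points are called low, green points called high and grey points neither; lists of transcription factors and feedback inhibitors lie to the left and ribosomal, translation and tRNA synthetase lists to the right.

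Cell cycle genes differed by function. CDKN1B, which encodes the CDK inhibitor p27, stood at 22.3, 18.9 and 21.3 FPKM at 0 h and at 5.05, 5.48 and 5.37 FPKM at 2 h. Its change was -1.62 ± 0.07, and E2F3, which drives S-phase genes, stood at -1.51 ± 0.08. Of 19 G1 regulators 3 were called low (15.8%, against 4.53% of all genes), and RB1, the retinoblastoma gene, was at the other end with 0.56 ± 0.13. None of 30 mitotic genes was called low (0%, against 4.53% of all genes), a small gap for a list of this size. Higher values without overlap were found in 63.3% of them, against 29.9% of all genes. AURKA was the lowest at -0.45 ± 0.05 and PTTG1, the securin gene, the highest at 0.51 ± 0.13. The mitotic median was 0.20, and it was just below 0 (-0.00137) with quantile normalization. Of 39 DNA replication genes only CDT1, the licensing factor, was called low (2.56%, against 4.53% of all genes), at -1.04 ± 0.07. Of 23 p53 targets 4 were called low (17.4%, against 4.53% of all genes). PPM1D, the phosphatase that opposes p53 signalling, stood at -1.55 ± 0.08 and CCNG1 at 0.60 ± 0.09. BBC3, the pro-death BCL2 relative PUMA, stood at -1.12 ± 0.24.

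Stress genes split within their lists. The co-chaperone DNAJB1 had 91.7, 82.1 and 102 FPKM at 0 h and 20.7, 20.3 and 23.8 FPKM at 2 h, a change of -1.87 ± 0.11. HSPA1B, an inducible HSP70 gene, stood at -1.49 ± 0.30. They were the 2 genes called low among 27 chaperones (7.41%, against 4.53% of all genes). HSPD1, the mitochondrial HSP60 gene, stood at 0.70 ± 0.12. In the integrated stress response list 6 of 20 were called low (30%, against 4.53% of all genes). CEBPB, a transcription factor, stood at -1.52 ± 0.14, PPP1R15A, which restores translation after stress, at -1.46 ± 0.06 and DDIT3, the CHOP gene, at -1.43 ± 0.35. In contrast ASNS, the asparagine synthetase of the same list, stood at 0.83 ± 0.20. Among sterol synthesis genes FDPS stood at 0.40 ± 0.14. DDIT4, an inhibitor of mTORC1, had 10.9, 49.7 and 11.98 FPKM at 0 h and 8.44, 0.632 and 5.96 FPKM at 2 h. Its change of -1.89 ± 1.03 rests on replicate 2, which had the highest 0 h and the lowest 2 h value.

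Genes of the translation apparatus lay on the other side of the median gene. Of 78 cytoplasmic ribosomal protein genes none was called low (4.53% of all genes were) or high (0.0987% of all genes were). Higher values without overlap were found in 56 (71.8%, against 29.9% of all genes), with a list median of 0.46. The median was 0.29 without centring and 0.0016 with quantile normalization, so its distance from 0 depended on the scale. RPS24 had 1303, 1671 and 1662 FPKM at 0 h and 2611, 2335 and 2750.4 FPKM at 2 h, the highest change of the list at 0.91 ± 0.14. RPS19 was the lowest at -0.11 ± 0.18, with overlapping libraries. Translation factors had a median of 0.44 (0.03 with quantile normalization), and 30 of 36 were higher without overlap (83.3%, against 29.9% of all genes). The highest of the 36 was NAP1L1 at 0.80 ± 0.07, a nucleosome assembly factor that the list counts although it is not a translation factor. PABPC1, the poly(A)-binding protein, stood at 0.65 ± 0.06. Aminoacyl-tRNA synthetases had a median of 0.39 and LARS stood at 0.64 ± 0.05; with quantile normalization the median was 0.13.

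Other abundant housekeeping groups were close to these. Of 43 proteasome genes 32 were higher without overlap (74.4%, against 29.9% of all genes), with a median of 0.38 and PSMC1 at 0.66 ± 0.12. The 79 nuclear genes of oxidative phosphorylation had a median of 0.28, which was -0.02 with quantile normalization, and the 32 SR and hnRNP splicing factors a median of 0.26, which was -0.06 with it. HNRNPA1 was the highest of the latter at 0.71 ± 0.13. Of 7 kinases of the SR proteins 3 were called low (42.9%, against 4.53% of all genes), and the median of the 7 was -0.40. CLK1 was the lowest, with 30.0, 26.1 and 23.3 FPKM at 0 h and 4.49, 5.04 and 4.71 FPKM at 2 h, a change of -2.08 ± 0.10. DYRK1A, a related kinase gene, stood at -1.99 ± 0.10 and CLK4 at -1.08 ± 0.18, while CLK2 stood at -0.40 ± 0.16 and SRPK1 at 0.33 ± 0.08. LDHA, the lactate dehydrogenase gene, stood at 0.93 ± 0.34 and the control genes GAPDH and ACTB at 0.42 ± 0.21 and 0.13 ± 0.10, both with overlapping libraries.

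Of 23 decapping factors, 1 was called low (4.35%, against 4.53% of all genes). Without overlap, 7 were lower (30.4%, against 30.3%) and 6 higher (26.1%, against 29.9%). These shares were near those of all genes. DCP2, the target named for CP25, stood at 22.1, 21.5 and 21.8 FPKM at 0 h and at 21.9, 24.3 and 18.6 FPKM at 2 h, a change of 0.15 ± 0.11 with overlapping libraries. Its activators differed: DCP1A stood at -0.66 ± 0.07 and DCP1B at -0.79 ± 0.08, both lower without overlap, while EDC3 stood at -0.06 ± 0.11 and DDX6 at -0.08 ± 0.11. EDC4, a scaffold of the decapping complex, had a change of -0.44 ± 0.14. In the Lsm ring LSM1 stood at 0.24 ± 0.08 and LSM3 at 0.61 ± 0.09. The exonuclease gene XRN1 was at 8.96, 8.79 and 7.95 FPKM at 0 h and 8.62, 8.34 and 8.08 FPKM at 2 h, or 0.14 ± 0.05 after centring. The 1 gene called low was PNRC1, an interactor of the decapping complex, with 14.2, 17.0 and 13.5 FPKM at 0 h and 4.49, 1.64 and 4.04 FPKM at 2 h. Its change was -1.75 ± 0.34. The list's median was 0.07, and it was negative without centring (-0.10) and with quantile normalization (-0.08).

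Of 23 deadenylases, their recruiters and poly(A)-binding proteins, 5 were called low (21.7%, against 4.53% of all genes). Without overlap, 9 were lower (39.1%, against 30.3%) and 8 higher (34.8%, against 29.9%), shares not far from those of all genes. The median was -0.07. TOB1, the lowest, stood at 23.6, 20.0 and 21.0 FPKM at 0 h and at 4.50, 3.84 and 5.87 FPKM at 2 h, a change of -1.81 ± 0.16. TOB2 was at -1.64 ± 0.09, BTG1 at -1.56 ± 0.17 and BTG2 at -1.26 ± 0.11, and CNOT4 at -1.50 ± 0.03 was the fifth low gene, whereas BTG3 overlapped between the times at -0.07 ± 0.10. TOB and BTG proteins bind the CCR4-NOT deadenylase. Of 21 proteins that bind AU-rich or GU-rich elements, 3 were called low (14.3%, against 4.53% of all genes). ZFP36L2, which recruits deadenylases to AU-rich mRNAs, stood at 20.7, 16.9 and 20.0 FPKM and then at 2.75, 3.32 and 3.30 FPKM, a change of -2.12 ± 0.11. HNRNPD, also known as AUF1, stood at 0.68 ± 0.11. In the exosome EXOSC4, described elsewhere as a Dcp2 substrate, had 29.5, 34.2 and 37.5 FPKM at 0 h and 11.2, 11.96 and 16.3 FPKM at 2 h. Its change was -1.13 ± 0.18, and it was the 1 of 18 exosome genes called low (5.56%, near the 4.53% of all genes). Higher values without overlap were found in 11 (61.1%, against 29.9% of all genes), and EXOSC8 stood at 0.49 ± 0.05. Among NMD factors, which degrade mRNAs with early stop codons, SMG8 was called low at -1.26 ± 0.08 and MAGOH stood at 0.58 ± 0.09. IRF7 averaged less than 1 FPKM and was not a member.

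**Figure D3:**
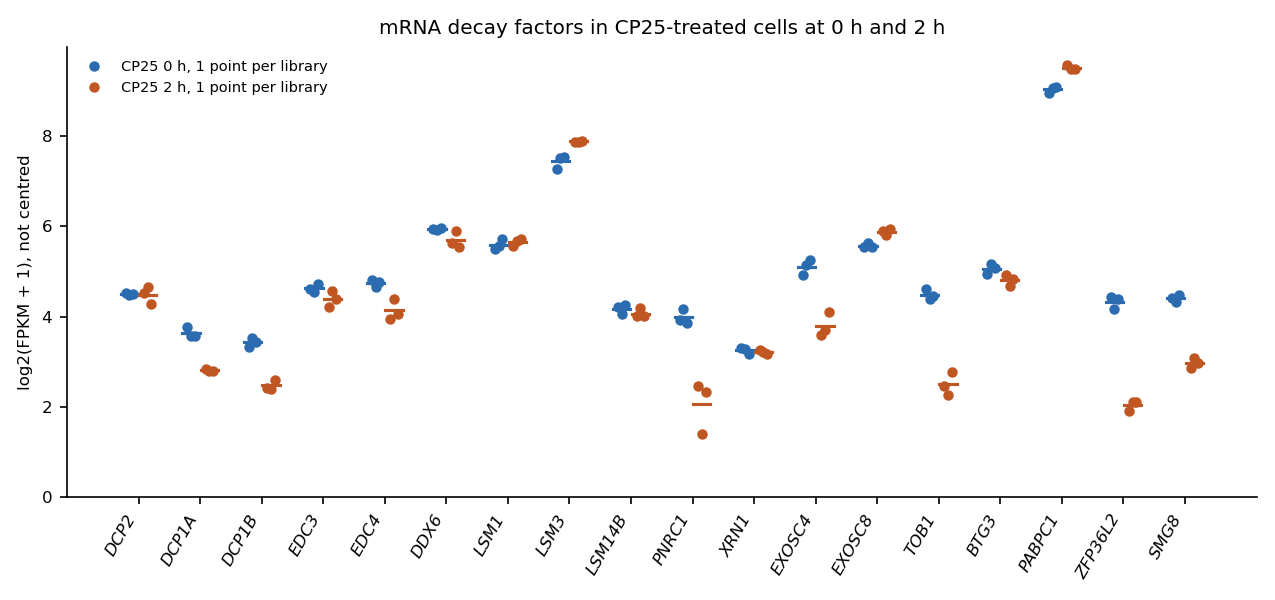
FPKM of 18 mRNA decay genes in each CP25 library, on a log2(FPKM + 1) axis without centring; blue points are 0 h libraries, orange points 2 h libraries and bars the means of 3. PNRC1, EXOSC4, TOB1, ZFP36L2 and SMG8 have 2 h points far below their 0 h points, while the points of DCP2 overlap.

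Of the 12 genes called high, 4 were small RNA genes. Of the 8 that were not small RNA genes, 3 were humanin-like genes, whose sequence closely resembles the mitochondrial 16S ribosomal RNA, so that reads may have been shared between copies. MTRNR2L2 had 217, 130 and 73.1 FPKM at 0 h and 767, 547 and 578 FPKM at 2 h, a change of 2.45 ± 0.47. MTRNR2L8 stood at 2.44 ± 0.36 and MTRNR2L1 at 1.78 ± 0.28. Another 3 were read-through names that overlap 2 ordinary genes. RPS10-NUDT3 had 2.70, 4.32 and 0 FPKM at 0 h and 15.1, 16.5 and 14.5 FPKM at 2 h, or 2.77 ± 0.73. Its overlapping genes, looked at after the values were seen, did not share that change: RPS10 stood at 0.22 ± 0.17 and NUDT3 at -0.42 ± 0.14. BLOC1S5-TXNDC5 stood at 1.75 ± 0.63. EEF1E1-MUTED, at 1.73 ± 0.56, completed the 3. HIST1H4C, a histone gene whose mRNA normally lacks a poly(A) tail, stood at 1.77 ± 0.54, with 27.3 FPKM in replicate 3 at 2 h against 9.12 and 9.48 FPKM in the other libraries of that time. NEAT1, the long non-coding RNA of nuclear paraspeckles, had 21.2, 17.5 and 9.69 FPKM at 0 h and 43.4, 26.5 and 23.6 FPKM at 2 h, or 1.095 ± 0.410.

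The low genes were then compared in structure with all genes, using GENCODE 29 transcripts matched by symbol. A coding transcript was found for 11350 of 12157 genes (93.4%) and for 532 of the 551 low genes. Low genes had few introns in their coding sequence. The median number of exon junctions per coding kilobase was 1.72 in low genes, 6.17 in all genes and 7.71 in the 1135 genes with the highest changes (the top decile). No junction at all in the coding sequence was found in 115 of 532 low genes (21.6%), in 4.90% of all genes and in 1.85% of the top decile. JUN, JUNB, IER2, IER5, SOX4, CEBPB, TOB1, SERTAD3 and CITED2 were among those with 0 junctions. Without the ZNF genes, which usually have 1 long coding exon for their fingers, the low genes had a median of 1.95 and 22.6% had no junction. Over all genes, junction density correlated with change at a Spearman rho of 0.48, across 11350 genes that share the same 6 libraries. GC content at the third codon position was 67.4% in low genes, 58.0% in all genes and 44.6% in the top decile, with a rho of -0.38 across genes.

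**Figure D4:**
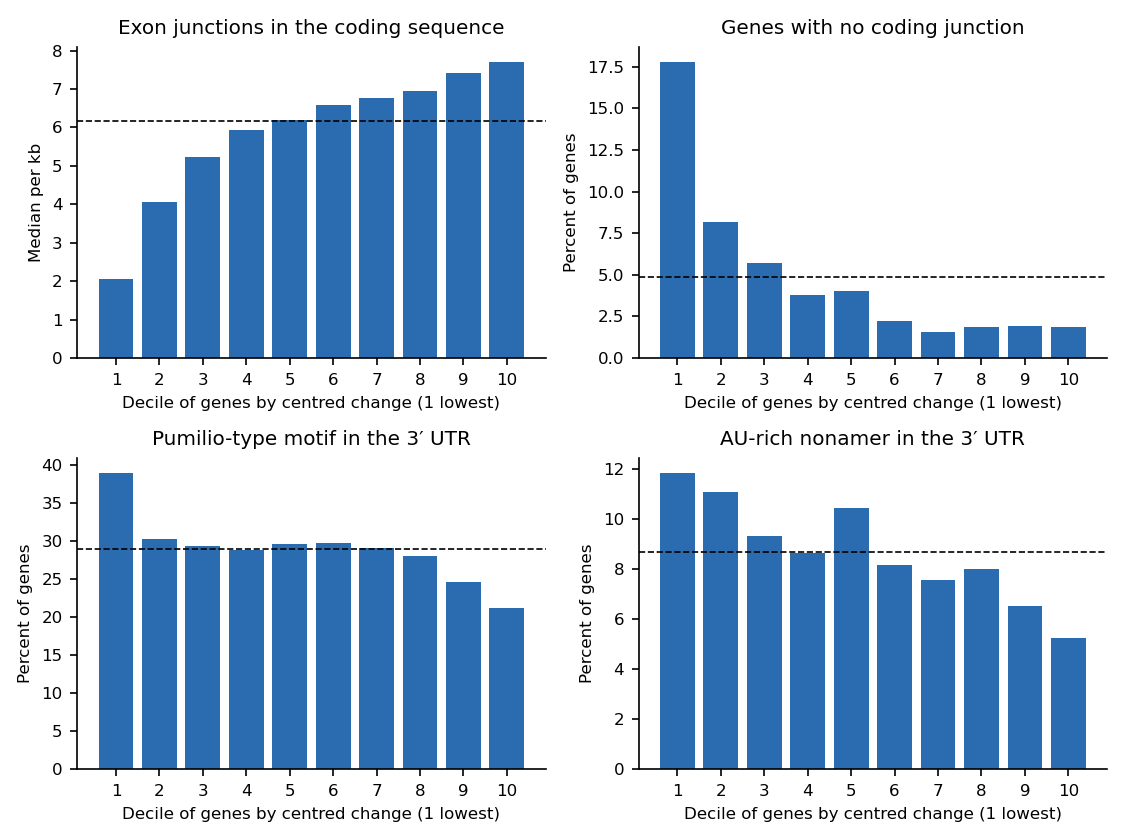
Transcript features in deciles of 11350 genes ordered by centred change, with decile 1 the lowest and decile 10 the highest; bars give the median or the percentage of genes and the dashed line the value over all genes. Junction density climbs from 2.06 per kb in decile 1 to 7.71 per kb in decile 10, and genes with a Pumilio-type motif are most frequent in decile 1.

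Motifs of known decay pathways were counted on the sense strand of 3′ untranslated regions of at least 50 bases. The Pumilio-type motif TGTANATA, bound by Pumilio proteins, was present in 215 of 521 low genes (41.3%), in 28.99% of 11117 genes and in 21.2% of the top decile. The median length of these regions was 1191 bases in low genes, 1117 in all genes and 896 in the top decile, so length differed in the same order. The AU-rich nonamer TTATTTATT was present in 70 of 521 low genes (13.4%) and in 8.67% of all genes. Its core pentamer ATTTA, which the nonamer contains, was not denser: 2.27 per kb in low genes, 2.32 in all genes and 2.79 in the top decile. Its reverse complement TAAAT, also made of A and T only, followed the same order with 2.29, 2.37 and 2.99 per kb. These matches are of letters, and binding was not measured.

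The following stretches show Pumilio-type matches (capitals) in 3 of the genes with the lowest changes, written as the DNA of the sense strand, 5′ to 3′, from the GENCODE transcripts.
JUN: taactgtgtaTGTACATAtatatatttt
NFKBIA: ctgtaaatggTGTACATAatgtattgtt
FBXO5: tttgtatacaTGTAAATAtttctgtatt
JUN holds 3 such matches in a 3′ untranslated region of 1287 bases, and FBXO5 holds 2 in 634 bases. Among the other genes named as lowest, MYC, TRIB1 and IER5 hold 2, 3 and 1 Pumilio-type matches. ZNF703, ZNF503, BAMBI, SERTAD3 and CITED2 hold 0. AU-rich nonamers (capitals) are shown for 4 low genes in the same way.
IER5: tgtcttcctTTATTTATTtatttattt
DUSP1: ggctggtccTTATTTATTtaacttcac
ZFP36L2: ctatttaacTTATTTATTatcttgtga
PPM1D: gagtgtattTTATTTATTtattatttt
The 3′ untranslated regions hold 3 nonamers in IER5, 2 in DUSP1, 2 in PPM1D and 1 in ZFP36L2. NFKBIA, JUN and FBXO5, which had changes from -3.06 to -2.52, hold 0 copies of the nonamer.

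At the other end, starts of the 5′ terminal oligopyrimidine type (TOP), a C followed by at least 4 pyrimidines, mark mRNAs of the translation apparatus. Among genes with a RefSeq start, such a start was found in 43 of 63 ribosomal protein genes (68.3%), in 9.83% of the top decile, in 5.52% of all genes and in 4.18% of low genes. The first 20 bases of 4 transcripts from RefSeq are shown with the pyrimidine run in capitals.
RPS24: CTCTTTTCCTCCTTggctgt
NAP1L1: CTTTTTTagcgccatctgct
RPL24: CTTTCTTTTCgccatctttt
RPS19: CCCTTTCCCCTggctggcag
RPS24 and NAP1L1 stood at 0.91 ± 0.14 and 0.80 ± 0.07, RPL24 at the list's middle with 0.45 ± 0.17, and RPS19 at -0.11 ± 0.18 although its start is of the same type.

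The question that the series' design puts to these changes is whether they differed from those in vehicle. In vehicle, 535 of 12166 genes were called low (4.40%) and 17 high (0.140%). Both treatments called 471 genes low, which is 85.5% of the CP25 list and 88.0% of the vehicle list. The 80 genes called low only with CP25 had a median of -1.06 with CP25 and -0.92 with vehicle, and 79 of them were below 0 in vehicle as well. The difference between the changes was tested for 12183 genes with the interaction contrast of limma over all 12 libraries, in which a scale factor per table cancels. At a Benjamini-Hochberg adjusted p of 0.05, 0 genes were called (0%), and 153 had an unadjusted p under 0.05, of which 94 lay above 0 (a higher 2 h to 0 h ratio with CP25) and 59 below. A replicate block within each time pairs the CP25 and vehicle libraries of the same number. With it 0 genes were called as well, with a smallest adjusted p of 0.271 in limma. Then 1284 genes had an unadjusted p under 0.05 (768 above 0 and 516 below). If no gene differed, about 609 of the 12183 genes would be expected at an unadjusted p under 0.05. The fit without the block lay below that number and the fit with it above.

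On the log2(FPKM + 1) scale the libraries bounded the difference closely for most low genes. A 2-fold difference in either direction lay outside the 95% interval for 530 of 551 low genes (96.2%). A 1.5-fold difference did for 475. With the replicate block within each time these counts were 537 and 522. The added 1 FPKM understates a difference in genes with low values, and 105 of these low genes averaged under 1 FPKM at 2 h. For such genes the interval does not bound the ratio of the RNA left. Intervals of single genes below are from the fit without the block. ZNF503 changed by -3.10 with CP25 and -3.12 with vehicle, a difference of 0.03 with an interval from -0.29 to 0.35. FBXO5 changed by -2.52 and -2.59, with an interval of the difference from -0.15 to 0.32. The bounds were wider for MYC, from -0.90 to 0.95, and for DDIT4, from -3.001 to 2.097, whose replicates were spread. In both genes replicate 2 held the highest 0 h and the lowest 2 h value with vehicle too. For DDIT4 these vehicle values were 39.5 and 1.19 FPKM. The fit without the block counts such a shared deviation as spread. EXOSC4 had a change of -1.13 with CP25 and -0.92 with vehicle, a difference of -0.20 with an interval from -0.74 to 0.34. For XRN1 the difference was 0.24, from 0.01 to 0.48, and its limma p of 0.0435 became 1.00 after adjustment. With the replicate block within each time its limma p was 0.00677, and 0.317 after adjustment.

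With small RNA, antisense and clone names left out, the 3 smallest p-values in each direction included the following. SAMD5 had 3.43, 3.56 and 3.24 FPKM at 0 h and 4.74, 5.41 and 4.70 FPKM at 2 h with CP25, and its difference was 0.48 with an interval from 0.23 to 0.73. RPS26P11, a ribosomal protein pseudogene whose reads may be shared with its parent gene, had the largest difference of these, 0.67, from 0.28 to 1.05. For XPNPEP3, an aminopeptidase gene, the difference was 0.56, from 0.24 to 0.89. In the other direction NR2C2AP differed by -0.44, from -0.71 to -0.18, and ICAM3, an adhesion receptor gene, by -0.38, from -0.62 to -0.13. All of these had a limma adjusted p of 1.00 without the block, and with it none passed the test.

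**Figure D5:**
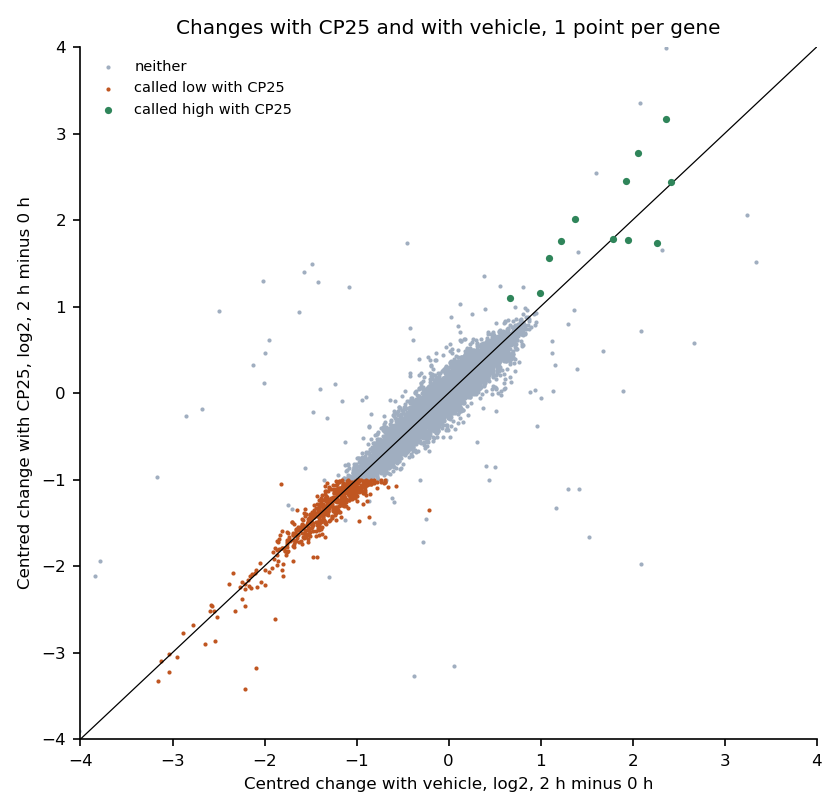
Centred change (log2, 2 h minus 0 h) with CP25 against that with vehicle, 1 point per gene, for 12056 genes measured in both; 4 small RNA genes lie outside the axes and the line marks equal changes. Orange and green points were called low and high with CP25; most of the 551 low genes lie near the line, and the points far from it are mostly grey.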

How the data were processed

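Poly(A) RNA of HEK293T cells was sequenced in 12 libraries, 3 per group. The submitters' processing notes name Bowtie2 2.2.3, CASAVA 1.8.2, Trimmomatic 0.36 and hg19. Which program and annotation made the FPKM values is not stated in the labels or files used. The authors deposited 1 table per time with 1 FPKM column per library. Their own comparisons of CP25 with vehicle were not used. Depth was estimated from the smallest steps between low FPKM values.

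Deposited FPKM were put on the log2(FPKM + 1) scale for genes averaging 1 FPKM or more, and each of the 6 CP25 libraries was centred on its median gene. A tie at 0 FPKM counted as an overlap. The interaction contrast used limma 3.58.1 in R 4.3.3 with a mean-variance trend. Both procedures were run on simulated data in which libraries varied independently, so that check did not cover libraries that deviate together. Same-numbered CP25 and vehicle libraries deviated together at 2 h (correlations of 0.39, 0.46 and 0.17) but not throughout at 0 h (0.31, -0.02 and 0.14) or between the CP25 libraries of the 2 times (0.05, -0.13 and 0.12), so the data pair the treatments at 2 h; the labels give only the numbers. A fit with a replicate block within each time was added after seeing the data. Transcript features came from GENCODE 29 and starts from RefSeq, on another build than the files, so no coordinates are given.

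The members and lists were chosen with earlier results of these data known. Named genes were a panel and the 12 lowest and highest called genes with at least 5 FPKM. They also included the lowest, highest and middle member of each list, with further called members, and the smallest p-values of the contrast. Small RNA, antisense and clone names were left out of these called genes and of the smallest p-values. A few genes that this rule names are not reported here. Alternatives were other pseudocounts (0.1 and 5), filters, scalings, each library left out and a replicate block.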

Additional observations from a re-analysis of the deposited data

How the results depend on the processing

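Genes called low numbered 917 with a pseudocount of 0.1, 118 with a pseudocount of 5, 832 without centring and 348 with quantile normalization; genes called high numbered 26, 7, 10 and 29. Leaving out 1 CP25 library gave 534 to 592 low genes and 14 to 34 high genes, with 34 without CP25 2 h replicate 2 and 23 without CP25 0 h replicate 2. The difference from vehicle had 0 calls without a filter, with a mean of at least 5 FPKM, with a pseudocount of 0.1, with centring and with quantile normalization (a pseudocount of 5 was not run for it), and 0 to 3 calls without 1 library, all of them small RNA genes. With the replicate block (ratios of same-numbered libraries), 381 genes were low and 8 high. With 1 block per number over all 12 libraries, the difference had 0 calls, with 272 genes at an unadjusted p under 0.05 in place of 153; with the block within each time, added after seeing the data, it had 0 calls and 1284 such genes. Without small RNA genes, a setting chosen after seeing the data, 541 were low and 8 high. Of 46 list medians, 5 changed sign without centring and 8 with quantile normalization. No named gene called low or high changed sign.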
